A study of Mus musculus with 3 samples.

Results

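Calb1, Calb2, Pvalb, Necab1, Necab2 and Necab3 encode calcium-binding proteins that are widely used to name classes of neurons in the thalamus and habenula. These 6 genes were listed by name, by a rule that uses no measured value, out of 32285 genes in the deposited count table. Earlier results of these data were known when the genes were chosen. The 6 genes were described in the 592 of 603 nuclei that the authors annotated as neurons, by the authors' 5 clusters (numbered 0 to 4) and by library. Tissue was cut out as lateral habenula from mothers (females with sexual experience), virgin males and virgin females, and nuclei were released from it. In all 3 groups only nuclei with KASH-GFP were kept, a fluorescent protein anchored in the membrane around the nucleus. The labels call the sorted nuclei KASH-GFP+ BNST LHb neurons, where LHb is the lateral habenula and BNST the bed nucleus of the stria terminalis, a limbic forebrain nucleus. Tissue of 3 mice was used for the single library of each group, so no difference between groups has a replicate check. The sources used here do not give the strain, the age or how the fluorescent protein reached the neurons.

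Proteins of this family buffer or sense intracellular calcium through EF-hands, paired helices around a short acidic loop that holds the ion. Calbindin (Calb1), calretinin (Calb2) and parvalbumin (Pvalb) are mobile buffers that shape the size and duration of calcium signals. The NECAB proteins join a single EF-hand region to a domain related to bacterial monooxygenases and are found mainly in neurons. In the mouse thalamus, Necab1 and Calb2 are used with Tnnt1, a troponin gene, to place excitatory relay neurons along a gradient of molecular types. Parvalbumin marks inhibitory neurons of the thalamic reticular nucleus, and in primates calbindin and parvalbumin mark separate sets of thalamic relay neurons.

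The coding DNA of the first EF-hand loop of each gene is shown because the loop is the feature that puts the 6 genes in 1 family. Each loop has 36 bases, the capitals mark its first and last codons, and all are from GENCODE release M21 on GRCm38.
Calb1: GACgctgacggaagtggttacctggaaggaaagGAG
Calb2: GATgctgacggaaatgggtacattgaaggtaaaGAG
Pvalb: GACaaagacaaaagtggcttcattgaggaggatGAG
Necab1: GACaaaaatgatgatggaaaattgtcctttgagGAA
Necab2: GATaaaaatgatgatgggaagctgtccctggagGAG
Necab3: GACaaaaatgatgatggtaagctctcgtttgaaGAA

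The Pvalb loop lies within exon 2 on the minus strand, at chr15:78202526-78202561. The other 5 loops are split by an intron. The Calb1 loop spans exons 1 and 2 at chr4:15881468-15881983 on the plus strand, and the Calb2 loop spans exons 1 and 2 at chr8:110156971-110168053 on the minus strand. The loops of Necab1 (chr4:15111277-15140234, minus strand), Necab2 (chr8:119450097-119452107, plus strand) and Necab3 (chr2:154555667-154557066, minus strand) each span exons 2 and 3. Searched by the PROSITE EF-hand calcium-binding loop pattern, the coding sequences held 4 loops in Calb1, 5 in Calb2, 2 in Pvalb, 1 in Necab1, 2 in Necab2 and 1 in Necab3. The same pattern was present in 216 of 21562 protein-coding genes, or 1.00%, and was present at least 2 times in 97 genes, or 0.450%. With the whole proteins translated and aligned in pairs, Calb1 and Calb2 were 59.6% identical over aligned residues, the closest pair of the 6 by that measure. Necab1 was 48.7% identical to Necab3 and 43.3% to Necab2, and Necab2 was 41.1% identical to Necab3.

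The genes differ greatly in length, which bears on their counts in nuclei. Necab1 covers 197550 bases (chr4:14952245-15149794), against 26801 for Calb1 (chr4:15881264-15908064), 30709 for Calb2 (chr8:110137502-110168210), 15287 for Pvalb (chr15:78191114-78206400), 25922 for Necab2 (chr8:119446719-119472640) and 14492 for Necab3 (chr2:154544399-154558890). The sources used here do not say whether intronic reads were counted. Levels of different members are therefore not compared with each other, and each gene is compared with itself across clusters and libraries.

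The unit is CPM, the unique molecular identifiers (UMIs) of a gene per 1000000 neuronal UMIs of a library or of a cluster within it. Neuronal nuclei numbered 201 in mothers, 204 in virgin males and 187 in virgin females, with median depths of 11898, 9414 and 13181 UMIs per nucleus in the same order. All 5 clusters held Slc17a6, a vesicular glutamate transporter that marks excitatory neurons of this region. It was detected in 73.9% to 97.8% of nuclei of a cluster. The labelled tissue was the lateral habenula, yet the 6 thalamic markers (Lef1, Prkcd, Rora, Ntng1, Gbx2 and Plekhg1) summed to 7089 CPM in cluster 0, 8266 in cluster 2 and 10641 in cluster 3. They summed to 2053 CPM in cluster 1 and 1454 in cluster 4. Prkcd did not follow the sum in cluster 0, at 13.4 CPM there, 189 in cluster 2, 536 in cluster 3 and 9.69 in cluster 1. Lef1 and Gbx2 were higher in clusters 0, 2 and 3 than in clusters 1 and 4. A list of 6 lateral habenula markers (Chrm3, Gap43, Gpr151, Htr2c, Pcdh10 and Pou4f1) summed to 899, 1116 and 1173 CPM in clusters 0, 2 and 3, and to 1893 and 1760 CPM in clusters 1 and 4. Pou4f1, the defining transcription factor of habenular neurons, had 49 UMIs in cluster 1 and 6 in cluster 4, and clusters 0, 2 and 3 had 0. The clusters are therefore called by number.

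All 6 genes were detected, but at very different counting depth. Over all neuronal nuclei the UMIs numbered 384 for Calb1, 425 for Calb2, 54 for Pvalb, 2792 for Necab1, 227 for Necab2 and 332 for Necab3. Necab1 was present in 394 of 592 nuclei, Calb2 in 210, Calb1 in 202, Necab3 in 197, Necab2 in 157 and Pvalb in 35, and 63 nuclei had no UMI of any member. The 11 nuclei that were not annotated as neurons held 0 UMIs of Calb1, Necab1 and Necab3 and 1 UMI each of Calb2, Pvalb and Necab2, at a median depth of 4780 UMIs against 11380 in neurons. With so few such nuclei, a share of 1 in 11 is 9.09% with an exact 95% interval from 0.230% to 41.3%, so the level of free RNA is poorly bounded.

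The authors drew the clusters from the same expression values, so the differences between clusters below are descriptions and carry no test. Among the 5 members with at least 100 neuronal UMIs, all except Pvalb, the highest cluster was the same in all 3 libraries for Calb1 and Necab3. Of all 9111 genes with that many UMIs, 23.2% had the same highest cluster in 3 of 3 libraries. None of the 5 had a cluster at least 2-fold above the mean of the others in every library, against 7.88% of all genes. For Calb1, Calb2 and Necab1 a cluster lay at least 2-fold below the mean of the others in every library, against 12.9% of all genes. The members were named for known regional expression, so these counts are not read as particular to them.

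**Figure D1:**
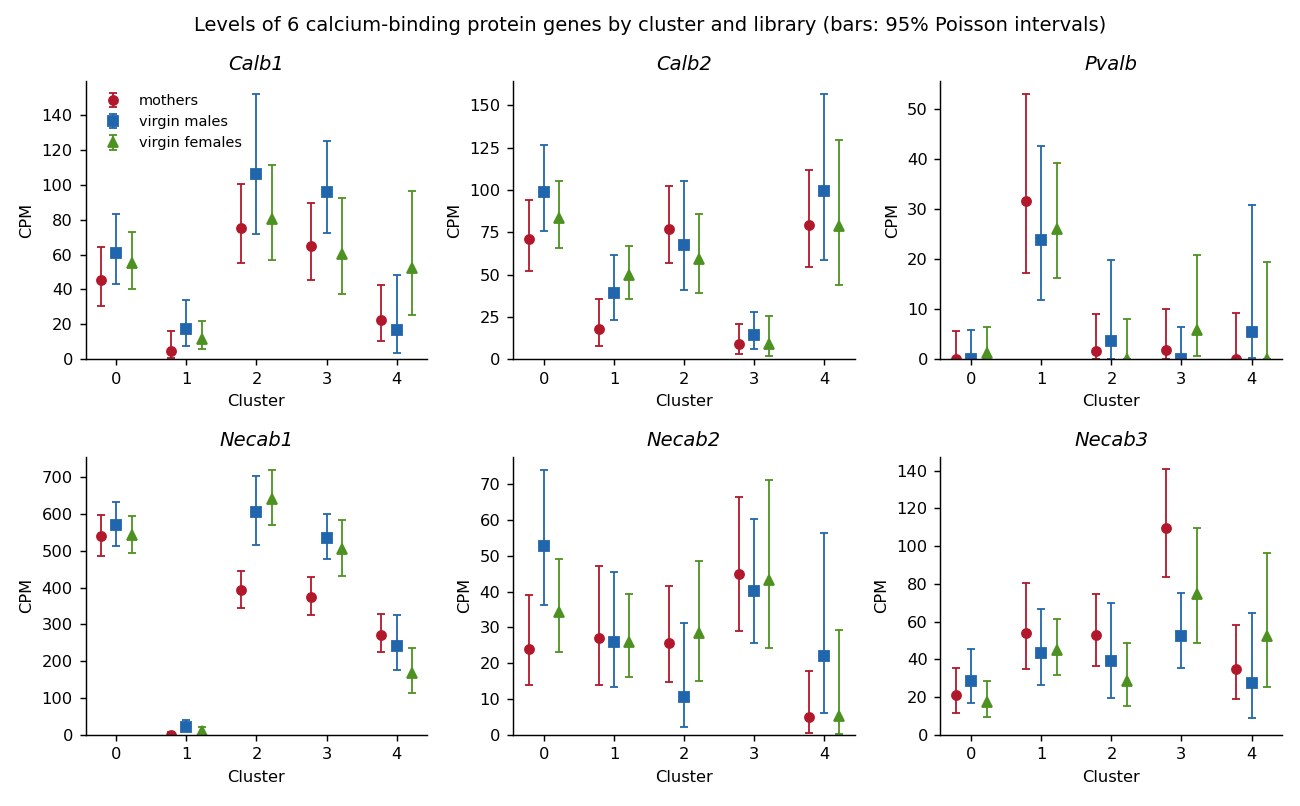
CPM of each gene (vertical axis, linear, its own scale in each panel) by cluster (horizontal axis) in mothers, virgin males and virgin females; points are the 3 libraries and bars exact Poisson 95% intervals. Necab1 in cluster 1 lies between 0 and 21.7 CPM, against 168 CPM or more in every other cluster, and Pvalb is above 20 CPM only in cluster 1.

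Necab1 split the clusters most sharply. Its product, neuronal calcium-binding protein 1, is found mainly in neurons. Cluster 0 had 539 CPM in mothers, 569.9 in virgin males and 543 in virgin females. Cluster 2 had 393 CPM in mothers, 604 in virgin males and 642 in virgin females. Cluster 3 had 374 CPM in mothers, 535 in virgin males and 504 in virgin females. The ranges of these 3 clusters overlapped, so their order is not resolved. In cluster 4 the level was 272 CPM in mothers, 242 in virgin males and 168 in virgin females, below every library of clusters 0, 2 and 3. In cluster 1 it was 0 CPM in mothers, 21.7 in virgin males and 10.6 in virgin females. Cluster 1 held 157 of the 592 nuclei but 0.681% of the Necab1 UMIs, and its mean level was 0.0240 times the mean of the other 4 clusters (log2 ratio -5.38). Without virgin males the log2 ratio was -6.34, and from the mean over nuclei it was -4.06.

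The single nuclei showed the same split. With each nucleus thinned to 5000 UMIs, to put all at the same depth, Necab1 was detected in 90.3% of cluster 0 nuclei, 84.0% of cluster 2, 82.0% of cluster 3, 56.5% of cluster 4 and 2.36% of cluster 1. Without thinning the shares were 93.0%, 92.8%, 90.1%, 68.0% and 7.01% in the same order. Cluster 4 was thus intermediate in its share as well as in its level. In cluster 1 the UMIs lay in 11 nuclei, 6 of virgin males and 5 of virgin females, whose median depth was 4698 UMIs against 10108.5 in the nuclei without. None of the 39 cluster 1 nuclei of mothers had a UMI, and the exact interval for the share of nuclei with a UMI at that depth reached 9.03%. Clusters 0, 2 and 3 also had the high thalamic marker sums, of 6786 CPM or more in every library. Cluster 4 had 1000.2 to 1812 CPM of those markers over the 3 libraries, less than the 1951 to 2309 CPM of cluster 1, and held 168 CPM or more of Necab1.

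Calb2 had a different low cluster. Calretinin is found in midline thalamic and in habenular neurons of rodents. In cluster 4 it had 79.2 CPM in mothers, 99.2 in virgin males and 78.6 in virgin females. In cluster 0 the values were 70.8 CPM in mothers, 99.0 in virgin males and 83.6 in virgin females, and in cluster 2 they were 77.0, 67.5 and 58.9 CPM in the same order. The ranges of these 3 clusters overlapped. Cluster 1 was lower, with 18.02 CPM in mothers, 39.0 in virgin males and 49.5 in virgin females. Cluster 3 was the lowest in all 3 libraries, with 8.98 CPM in mothers, 14.0 in virgin males and 8.63 in virgin females, and no range overlapped between clusters 2, 1 and 3. The cluster 3 mean was 0.154 times the mean of the other clusters (log2 ratio -2.70). This was so although cluster 3 had the deepest nuclei, with a median of 15007 UMIs against 9431 to 12639 in the others.

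Thinned to 5000 UMIs, Calb2 was detected in 4.49% of cluster 3 nuclei, against 18.1% in cluster 1 and 24.6% to 28.7% in clusters 0, 2 and 4. The unthinned shares were 13.2% in cluster 3, 27.4% in cluster 1 and 36% in cluster 4, all within the wide interval of the share in nuclei not annotated as neurons. By level, clusters 0, 2 and 4 held both Necab1 and Calb2, cluster 3 held Necab1 with little Calb2, and cluster 1 held Calb2 with little Necab1. Tnnt1, the gene at the other end of the thalamic gradient from Calb2, had 17.96 CPM in mothers, 17.5 in virgin males and 11.5 in virgin females in cluster 3. It had 24 of its 32 UMIs there and 0 UMIs in the 157 nuclei of cluster 1.

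**Figure D2:**
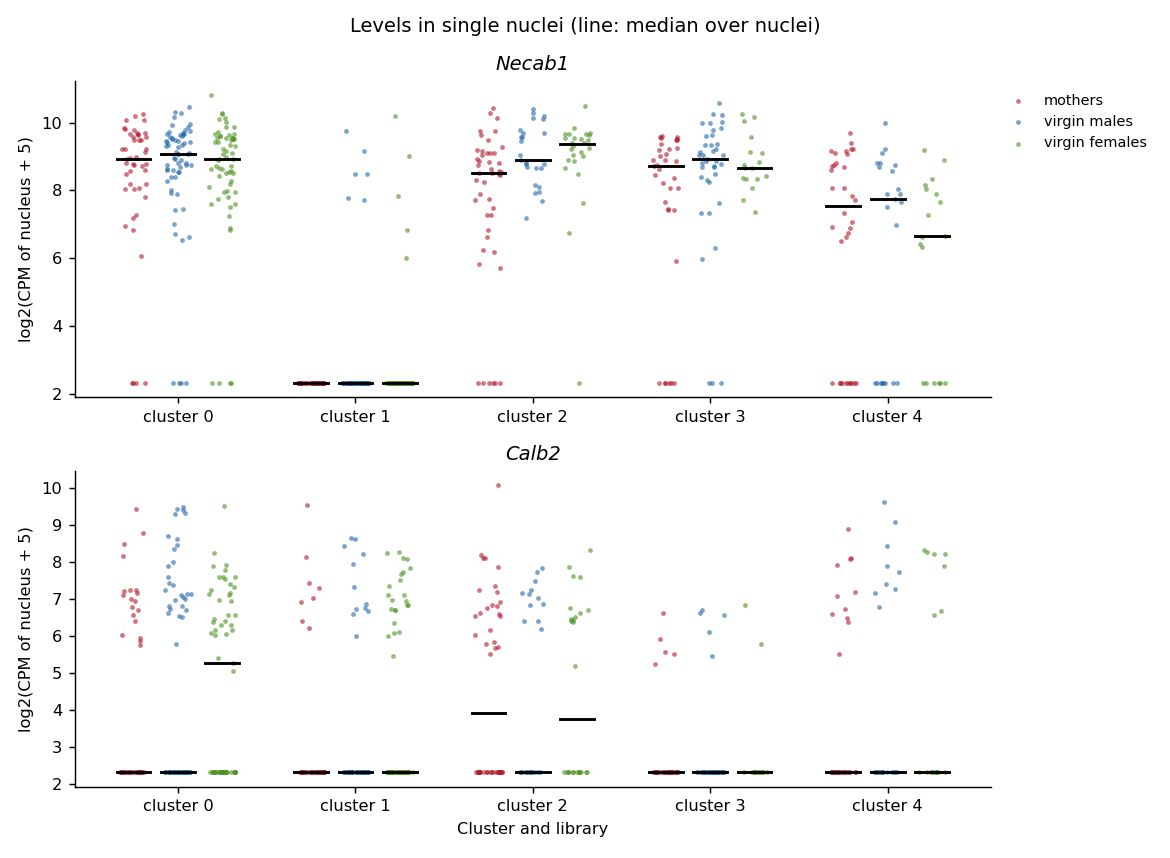
Level in each neuronal nucleus, as log2(CPM + 5), of Necab1 (top) and Calb2 (bottom) by cluster, with mothers, virgin males and virgin females side by side; each point is a nucleus, the lowest row of points is 0 UMIs, and lines are medians. Almost all cluster 1 nuclei lie at 0 UMIs of Necab1, and 13.2% of cluster 3 nuclei had a Calb2 UMI.

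Calb1 was low in cluster 1 and highest in cluster 2 in all 3 libraries. Cluster 2 had 75.4 CPM in mothers, 107 in virgin males and 80.7 in virgin females. Cluster 3 had 64.7 CPM in mothers, 96.2 in virgin males and 60.4 in virgin females. Both exceeded cluster 1, with 4.51 CPM in mothers, 17.3 in virgin males and 11.8 in virgin females. Cluster 0 lay between, at 45.2 CPM in mothers, 60.7 in virgin males and 55.0 in virgin females. Cluster 4 had 22.3 CPM in mothers, 16.5 in virgin males and 52.4 in virgin females, from 22 UMIs in all. Each cluster's range overlapped that of its neighbour in the order 2, 3, 0, 4 and 1, so only clusters further apart in that order are separated. The mean of cluster 2 was 2.07-fold that of the other clusters. After thinning, Calb1 was detected in 28.7% of cluster 2 and 29.2% of cluster 3 nuclei, 20.1% of cluster 0, 14.5% of cluster 4 and 2.36% of cluster 1.

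Pvalb was confined to few nuclei, and 47 of its 54 UMIs (87.0%) were in cluster 1. There it had 31.5 CPM in mothers, 23.8 in virgin males and 25.9 in virgin females, from 14, 11 and 22 UMIs. Every other combination of cluster and library had at most 2 UMIs, and 6 of the 12 had 0. The cluster 1 mean was 16.8-fold the mean of the other clusters, whose levels rest on 7 UMIs in all. After thinning, 12 of 127 cluster 1 nuclei (9.45%) had a UMI, against 0 of 154 cluster 0 nuclei and 0 of 94 cluster 2 nuclei. A single nucleus had a UMI among 89 of cluster 3, and 1 among 69 of cluster 4. Without thinning, 1 nucleus of cluster 0 and 2 nuclei of cluster 2 had a Pvalb UMI.

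Most Pvalb nuclei of cluster 1 also held a transcript of glutamatergic neurons. Slc17a6 was detected in 25 of the 29 nuclei with a Pvalb UMI (86.2%), against 91 of the 128 without (71.1%). At 5000 UMIs per nucleus the counts were 8 of 12 with Pvalb (66.7%) and 73 of 115 without (63.5%), so the gap shrank at equal depth. Gad1 and Slc32a1, which make and load the inhibitory transmitter GABA, were detected in 0 of the 29, and in 8 of the 128 each. Gad2 was detected in 3 of the 29 and 14 of the 128. All 6 markers of the thalamic reticular nucleus, Pvalb and the 3 GABA genes among them, were detected in cluster 1, and they summed to 162 CPM in mothers, 97.5 in virgin males and 107 in virgin females. The 3 GABA genes alone summed to 78.8 CPM in mothers, 43.3 in virgin males and 53.1 in virgin females. Slc32a1 had all 16 of its UMIs in cluster 1 and Gad1 had 20 of 27 there, but Gad2 was not particular to that cluster. In cluster 4 the GABA genes summed to 37.1 CPM in mothers, 60.6 in virgin males and 105 in virgin females, all from Gad2.

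Spp1, which encodes the secreted phosphoprotein osteopontin, was the gene of the reticular list most often found with Pvalb in cluster 1, and was singled out after its values were seen. It was detected in 16 of the 29 nuclei with a Pvalb UMI (55.2%) and in 4 of the 128 without (3.13%). The counts with Pvalb were 7 of 8 nuclei in mothers, 2 of 7 in virgin males and 7 of 14 in virgin females. Nuclei with Pvalb were deeper, with a median of 16886 UMIs against 8560. At 5000 UMIs per nucleus the counts were 3 of 12 with Pvalb (25%) and 7 of 115 without (6.09%). By library, the thinned counts with Pvalb were 2 of 4 in mothers, 1 of 4 in virgin males and 0 of 4 in virgin females, and those without were 1 of 29, 2 of 33 and 4 of 53. Virgin females thus ran the other way on these few nuclei. Ecel1, another gene of the reticular list, was detected in 0 of the 29 nuclei with Pvalb and 7 of the 128 without, before thinning.

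**Figure D3:**
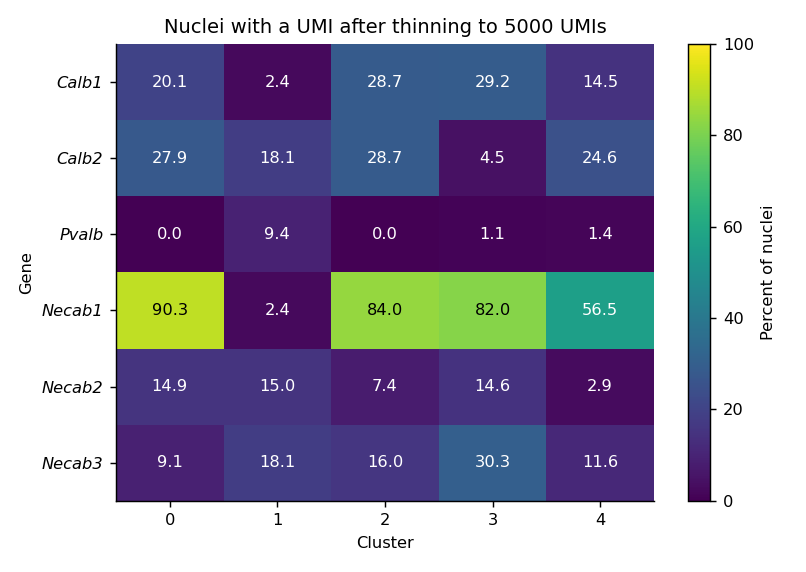
Percent of nuclei with at least 1 UMI (colour and printed value) of each gene (rows) in each cluster (columns), all libraries together, after every nucleus was thinned to 5000 UMIs. Necab1 is at 2.4% in cluster 1 and 56.5% to 90.3% elsewhere, Calb2 is lowest in cluster 3 and Pvalb highest in cluster 1.

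Neither Necab2 nor Necab3 had a cluster at least 2-fold above or below the mean of the others in every library. Necab2, which in neurons can bind G protein-coupled receptors, had 44.9 CPM in mothers, 40.2 in virgin males and 43.2 in virgin females in cluster 3. In cluster 0 it had 24.1 CPM in mothers, 52.7 in virgin males and 34.3 in virgin females. Cluster 1 was closely alike across libraries, at 27.0 CPM in mothers, 26.0 in virgin males and 25.9 in virgin females. Neighbouring ranges overlapped throughout, cluster 4 was lowest on average, from 7 UMIs, and after thinning the shares were 14.9%, 15.0%, 7.45%, 14.6% and 2.90% in clusters 0 to 4.

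Necab3, also known for binding the amyloid precursor protein adaptor Apba2, was highest in cluster 3 in every library. There it had 109.6 CPM in mothers, 52.5 in virgin males and 74.8 in virgin females. Cluster 1 came next on average with 54.1 CPM in mothers, 43.3 in virgin males and 44.8 in virgin females. That rank rests on 4 cluster 1 nuclei labelled medial habenula, described below: without them cluster 1 had 37.2 CPM in mothers, 32.9 in virgin males and 40.3 in virgin females. The mean of 36.8 CPM was then below the 40.1 CPM of cluster 2 and the 38.2 CPM of cluster 4. Cluster 0 was the lowest on average, with 21.1 CPM in mothers, 28.7 in virgin males and 17.2 in virgin females. The cluster 3 mean was 2.13-fold the mean of the other clusters, and after thinning 30.3% of its nuclei had a UMI, against 9.09% to 18.1% of the nuclei of the other clusters.

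Within cluster 1, Necab2 differed between the authors' subtype labels. These labels split the cluster into 71 nuclei labelled LHb4 and 86 labelled LHb2. The labels are the authors' own, so the contrast is a description and carries no test. A Necab2 UMI was present in 24 LHb4 nuclei and absent from 47, and present in 9 LHb2 nuclei and absent from 77. At 5000 UMIs per nucleus it was present in 15 and absent from 34 LHb4 nuclei, and present in 4 and absent from 74 LHb2 nuclei. In LHb4 nuclei Necab2 had 60.1 CPM in mothers, 46.5 in virgin males and 53.7 in virgin females, against 7.21, 8.11 and 10.9 CPM in LHb2 nuclei of the same libraries. The ranges did not overlap, and the pooled level was 53.0 CPM in LHb4 nuclei and 9.31 CPM in LHb2 nuclei, a 5.69-fold ratio with a 95% counting interval from 2.77 to 12.9. Necab3 had 64.7 CPM in LHb4 nuclei and 35.4 CPM in LHb2 nuclei, or 1.83-fold (1.16 to 2.90). All 4 nuclei labelled medial habenula were LHb4 nuclei, and without them this ratio was 1.16 (0.683 to 1.96), while that of Necab2 was 5.40 (2.60 to 12.3). Pvalb did not follow the labels, at 29.4 CPM in LHb4 nuclei and 25.1 CPM in LHb2 nuclei, 1.17-fold (0.622 to 2.17). Calb1 and Calb2 gave pooled ratios of 0.851 and 0.862, with directions that differed between libraries. Pou4f1 was detected in 13 of the 33 cluster 1 nuclei with Necab2 (39.4%) and in 18 of the 124 without (14.5%). At 5000 UMIs these shares were 15.8% and 12.96%. The pooled shares mix the labels. Among LHb4 nuclei Pou4f1 was in 45.8% with Necab2 and 27.7% without, and at 5000 UMIs in 20% and 26.5%, the other direction. Among LHb2 nuclei it was in 2 of 9 with Necab2 and 5 of 77 without, and at 5000 UMIs in 0 of 4 and 5 of 74.

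**Figure D4:**
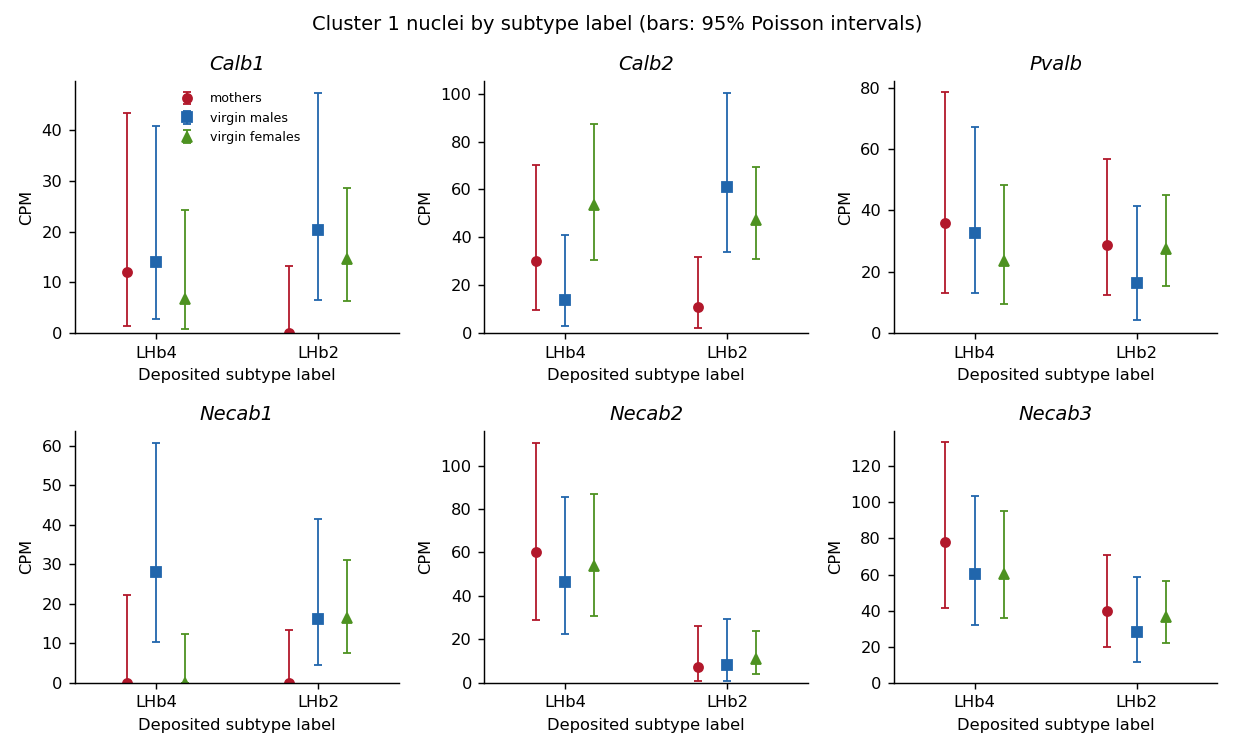
CPM of each gene (vertical axis, linear, its own scale in each panel) in cluster 1 nuclei labelled LHb4 (left) or LHb2 (right), for mothers, virgin males and virgin females; bars are exact Poisson 95% intervals. Necab2 is between 46.5 and 60.1 CPM in LHb4 nuclei and between 7.21 and 10.9 CPM in LHb2 nuclei.

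The authors labelled 4 neuronal nuclei as medial habenula, all in cluster 1: 2 of mothers, 1 of virgin males and 1 of virgin females. Each had Necab3, with 3 and 5 UMIs in mothers, 5 in virgin males and 4 in virgin females. That is 17 UMIs at a median depth of 5908.5, or 716 CPM (Poisson interval 417 to 1146), above the 36.8 CPM mean of the other cluster 1 nuclei. Of the others, Necab2 had 3 UMIs in these nuclei, Calb2 had 1, and Calb1, Necab1 and Pvalb had 0. With 4 nuclei this is a description of those nuclei only.

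Members met in the same nuclei about as often as their shares within cluster and library gave. Calb1 and Necab1 were detected together in 187 nuclei, where the product of shares gave 174, and 92.6% of nuclei with Calb1 also had Necab1. Calb1 and Calb2, used in cortex as markers of largely separate neurons, were together in 86 nuclei, where the product gave 74.7. At 5000 UMIs per nucleus this pair was together in 23 nuclei, where the product gave 21. Pvalb and Necab3 were together in 18 nuclei against 11.9 by the product, and in 3 against 2.55 after thinning. Pvalb and Necab1 were together in 4 nuclei against 7.15 by the product, and in 2 against 1.72 after thinning. The number of members in a nucleus differed by cluster: 46 of 157 cluster 1 nuclei (29.3%) had none, against 1.10% to 10.7% of the other clusters. The share with at least 4 members was 28.9% in cluster 2 and 25.3% in cluster 3, and 0 in cluster 1.

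Across the 15 combinations of cluster and library, Calb1 and Necab1 moved together (Pearson r of log2(CPM + 5) 0.87, Spearman rho 0.79), and Pvalb ran against Necab1 (r -0.90, rho -0.58). Calb2 ran against Necab3 (r -0.77, rho -0.73) and was unrelated in level to Calb1 (r -0.004, rho -0.14). These points share 5 clusters and 3 libraries and are descriptions. Among 9110 other genes with at least 100 neuronal UMIs, the 3 most like Calb1 in this measure were Ero1lb (r 0.932), Nell1os (0.924) and Csnk2a2 (0.920). Nckap5 (0.953), Gm27008 (0.917) and Lemd1 (0.890) were most like Calb2. The genes most like Necab2 were Prkab2 (0.900), Dclk2 (0.840) and Psmc1 (0.839).

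For Necab1 and Necab3 the most similar gene lies inside the member itself. Gm11844, annotated as an antisense gene at chr4:15022582-15031987 on the plus strand within Necab1, had r 0.969 with it. It averaged 94.3, 88.3 and 63.9 CPM in clusters 0, 2 and 3, against 28.4 CPM in cluster 4 and 2.17 CPM in cluster 1. The protein-coding gene 1700003F12Rik, at chr2:154547085-154550003 on the strand opposite to Necab3, had r 0.875 with it and averaged 34.9 CPM in cluster 3 and 8.11 in cluster 0. The sources used here do not say whether counting used strand, so UMIs of these overlapping genes and of the members cannot be told apart with certainty. Grm7 (0.960), a metabotropic glutamate receptor, and Shisa9 (0.956), an AMPA receptor auxiliary protein, came next for Necab1, and Rbms1 (0.863) and Ncbp3 (0.844) for Necab3. By rank, Grm7 (rho 0.47) and Shisa9 (rho 0.66) were less close to Necab1 than Gm11844 (rho 0.98).

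Over all neuronal nuclei, the 6 genes differed little between the libraries. A range in parentheses after a ratio is its 95% counting interval, which covers counting error only. Calb1 had 46.1 CPM in mothers, 63.1 in virgin males and 46.4 in virgin females. Its ratio was 0.994 (0.769 to 1.28) for mothers over virgin females, 1.36 (1.06 to 1.75) for virgin males over virgin females and 0.730 (0.567 to 0.939) for mothers over virgin males. Virgin males were thus the highest library, and they exceeded virgin females in 4 of 5 clusters. Mothers were lower than virgin females in 4 of 5 clusters, and lower than virgin males in 4 of 5. The interval of each of these ratios held 1 in each of the 5 clusters. Cluster 1, which is low in Calb1, was 26.0% of neuronal nuclei in virgin males and 34.8% in virgin females, so the sums mix level and composition. Calb2 had 52.0 CPM in mothers, 58.9 in virgin males and 58.9 in virgin females, and all its ratios held 1 within their intervals.

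Necab1 had 342 CPM in mothers, 418 in virgin males and 362 in virgin females. The ratio was 0.945 (0.863 to 1.04) for mothers over virgin females, 1.15 (1.05 to 1.27) for virgin males over virgin females and 0.819 (0.746 to 0.899) for mothers over virgin males. These sums mix level and composition, since cluster 1 nuclei carry almost no Necab1. Cluster 1 was 19.4% of neuronal nuclei in mothers, 26.0% in virgin males and 34.8% in virgin females. With the same mix of clusters in each library, the log2 ratio of mothers over virgin females was -0.22 in place of -0.08, and that of virgin males over virgin females was 0.07 in place of 0.21.

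Necab2 had 26.4 CPM in mothers, 35.3 in virgin males and 29.8 in virgin females, with 1 inside the interval of every ratio. Necab3 had 54.2 CPM in mothers, 39.6 in virgin males and 37.5 in virgin females. Its ratio was 1.45 (1.11 to 1.88) for mothers over virgin females, 1.37 (1.04 to 1.81) for mothers over virgin males and 1.05 (0.780 to 1.42) for virgin males over virgin females. Mothers were higher in 4 of 5 clusters in both comparisons, which share the mothers' library. The Necab3 sums also mix level and composition, since Necab3 was highest in cluster 3. That cluster was 17.4% of neuronal nuclei in mothers, 19.1% in virgin males and 9.09% in virgin females. Its share in mothers was thus larger than in virgin females but smaller than in virgin males. After thinning, Necab3 was detected in 17.6% of nuclei in mothers, 16.1% in virgin males and 15.1% in virgin females. Without thinning the shares were 39.8%, 28.4% and 31.6% in the same order. Pvalb had 5.94 CPM in mothers, 6.12 in virgin males and 9.20 in virgin females, from 16, 13 and 25 UMIs.

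Pvalb was the only member past 1.5-fold, lower in mothers than in virgin females (0.646, 0.322 to 1.26) and lower in virgin males than in virgin females (0.666, 0.313 to 1.35). Both intervals held 1. At least 1.5-fold lower were 8.72% of all genes with 10 or more UMIs for mothers over virgin females and 9.49% for virgin males over virgin females. No member was at least 1.5-fold higher in either comparison, against 9.42% and 8.67% of all genes, and for mothers over virgin males none was past that fold, against 9.44% higher and 8.64% lower. The other 5 members had at least 50 UMIs in every pair. Of all genes with that many, 3.83% were at least 1.5-fold higher and 3.66% lower for mothers over virgin females, 2.98% and 4.58% for virgin males over virgin females, and 4.25% and 3.01% for mothers over virgin males. Within cluster 1 Pvalb was 1.22-fold (0.575 to 2.49) in mothers over virgin females and 0.919-fold (0.402 to 1.98) in virgin males over virgin females. With the same mix of clusters the log2 ratio was 0.14 in place of -0.63 for mothers over virgin females, and -0.091 in place of -0.59 for virgin males over virgin females. After thinning it was -0.12 and 0.25 in the same order.

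**Figure D5:**
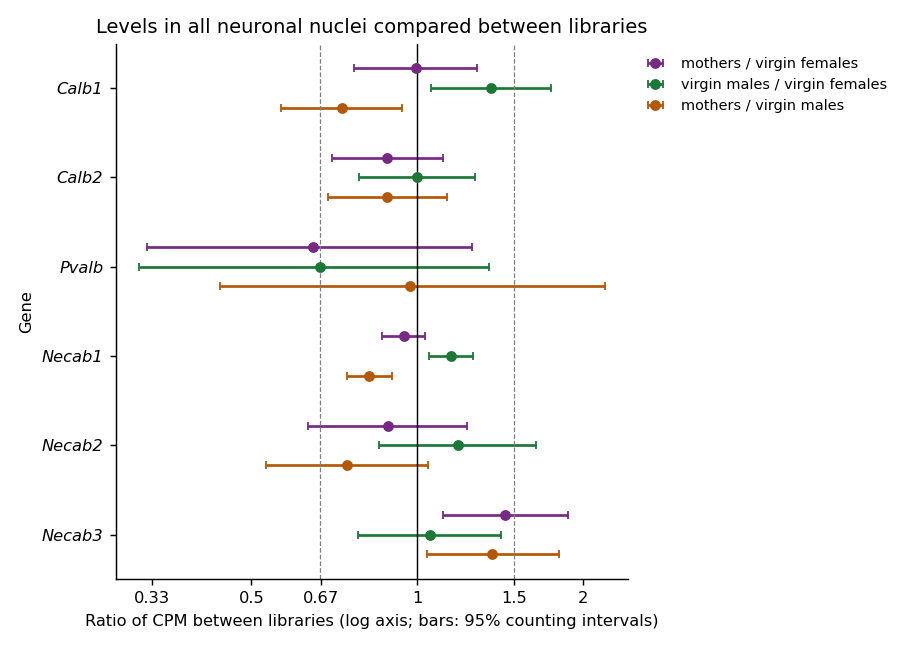
Ratio of CPM over all neuronal nuclei (horizontal log axis) for mothers over virgin females, virgin males over virgin females and mothers over virgin males, for each gene (vertical axis); bars are 95% counting intervals and dashed lines mark 1.5-fold in each direction. Pvalb alone is past 1.5-fold, with intervals that hold 1. The sum of Necab3, which mixes level and composition, is higher in mothers in both comparisons that include them.

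Within clusters, Necab1 was lower in mothers in clusters 2 and 3, while cluster 0 showed no such gap. In cluster 2 mothers had 393 CPM, and the ratio was 0.613 (0.515 to 0.729) to virgin females and 0.651 (0.533 to 0.797) to virgin males. In cluster 3 mothers had 374 CPM, with ratios of 0.742 (0.604 to 0.913) to virgin females and 0.698 (0.583 to 0.835) to virgin males. The cluster 0 ratios were 0.994 and 0.946 in the same order. In cluster 4 the direction was opposite, at 1.62 (1.09 to 2.49) for mothers over virgin females and 1.12 (0.785 to 1.63) for mothers over virgin males. The share of all genes past 1.5-fold was not counted in cluster 4, so the 1.62 has no background. For genes with 10 or more UMIs, the share higher in mothers than in virgin females was 13.6%, 17.1% and 18.3% in clusters 1, 2 and 3. In cluster 2, 12.6% of genes with 10 or more UMIs were at least 1.5-fold lower for mothers over virgin females and 11.5% for mothers over virgin males. Among genes with 50 or more UMIs, as Necab1 has there, the shares were 5.14% and 4.84%.

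Over single nuclei the median Necab1 level of cluster 2 was 361 CPM in mothers, 469 in virgin males and 652 in virgin females. In cluster 3 the medians were 415 CPM in mothers, 485 in virgin males and 400.1 in virgin females, so the median of mothers there was not the lowest. The mix of subtype labels moved with the cluster 2 result. Nuclei labelled LHb2 were 15 of 46 in mothers, 6 of 25 in virgin males and 1 of 26 in virgin females, and in them Necab1 had 119 CPM in mothers, 422 in virgin males and 103 in virgin females, the last from 1 UMI. Among the LHb1 nuclei of cluster 2 it had 518 CPM (452 to 591) in mothers, 663 (558 to 782) in virgin males and 653 (581 to 733) in virgin females. The 6 thalamic markers were all detected in cluster 2 of each library, with sums of 8249 CPM in mothers, 7853 in virgin males and 8544 in virgin females. The lateral habenula list had a sum of 924 CPM in mothers, 1254 in virgin males and 1292 in virgin females there, with Pou4f1 at 0 in each and Gpr151 at 0 in both virgin libraries. The part of label mix in the result beyond these values was not tested.

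Cluster 1 of mothers had 0 Necab1 UMIs in 443945, against 10 UMIs in virgin males and 9 in virgin females. The counting interval of the ratio ran from 0 to 0.464 for mothers over virgin males. For mothers over virgin females it ran from 0 to 0.968, on fewer than 10 UMIs in the pair. By summed UMIs, Calb2 was also lowest in mothers in cluster 1, at 0.364 of virgin females (0.148 to 0.785) and 0.462 of virgin males (0.174 to 1.12). The value of mothers rests on 8 UMIs. As the mean over nuclei, Calb2 had 44.2 CPM in mothers, 44.8 in virgin males and 52.8 in virgin females, a smaller gap. After thinning it was detected in 12.1%, 21.6% and 19.3% of cluster 1 nuclei in the same order. There 16.2% of genes were at least 1.5-fold lower in mothers than in virgin females and 15.8% lower than in virgin males. Of the virgin males' cluster 1 nuclei, 5 carried RNA of ependymal or choroid cells, whose 4 markers summed to 1612 CPM there, against 4.51 CPM in mothers and 0 in virgin females. Without these 5 nuclei the log2 ratio of Necab1 in cluster 1 to the other clusters was -5.34, against -5.38 with them.

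Necab3 in cluster 3 had 61 UMIs in mothers, 30 in virgin males and 26 in virgin females. It was 2.09-fold (1.33 to 3.35) in mothers over virgin males and 1.46-fold (0.912 to 2.42) in mothers over virgin females. There 17.5% of genes were at least 1.5-fold higher for mothers over virgin males and 18.3% for mothers over virgin females. Necab2 in cluster 0 was 0.458 (0.235 to 0.855) in mothers over virgin males, from 16 and 33 UMIs, and 0.702 (0.357 to 1.33) in mothers over virgin females. The share of all genes past 1.5-fold was not counted in cluster 0. For genes with 10 or more UMIs, the share lower in mothers than in virgin males was 15.8%, 11.5% and 13.8% in clusters 1, 2 and 3.

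Other calcium genes were counted in 3 lists named for their function. The shares of all genes past 1.5-fold given above for 10 or more UMIs, 8.64% to 9.49% in a direction, are the background for these counts. Of 52 listed EF-hand genes, 35 had 10 or more UMIs in the pair of libraries, the same number in each comparison. For mothers over virgin females 2 were at least 1.5-fold higher and 4 lower, with a median log2 ratio of -0.10. For virgin males over virgin females 2 were higher and 3 lower (median -0.03), and for mothers over virgin males 1 was higher and 3 lower (median -0.08). The median of all genes lay between -0.02 and 0.02 in the 3 comparisons. Of the 20 listed calcium pumps, exchangers and store channels, 15 were measured for mothers over virgin females, with 2 higher and 0 lower. For virgin males over virgin females 17 were measured, with 2 higher and 0 lower, and for mothers over virgin males 17, with 1 higher and 2 lower. Of the 13 genes of calmodulin-dependent kinases and calcineurin, 0 were higher in any comparison, and 1 was lower for mothers over virgin females and 1 for mothers over virgin males.

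Across clusters, 5 of 24 EF-hand genes with at least 100 neuronal UMIs (20.8%) had a cluster at least 2-fold above the mean of the others in all 3 libraries, as had 5 of 13 pumps and store genes (38.5%) and 2 of 12 kinase and calcineurin genes (16.7%), beside the 7.88% of all genes above. Cabp1, which encodes the calmodulin-like protein caldendrin, averaged 171 CPM in cluster 1, 10.3-fold the mean of the other clusters. It had 37.5 CPM in mothers, 44.7 in virgin males and 59.96 in virgin females over all neurons. Its ratio was 0.626 (0.483 to 0.807) for mothers over virgin females. Cluster 1 was a smaller share of nuclei in mothers than in virgin females, and the part of that share in the ratio was not tested. Caln1, a calneuron gene, averaged 230.0 CPM in cluster 4 (6.11-fold), and Kcnip1, an accessory subunit of A-type potassium channels, averaged 295 CPM in cluster 0 (5.40-fold). Sdf4, a calcium-binding protein of the Golgi lumen, had 40.9 CPM in mothers, 35.3 in virgin males and 54.4 in virgin females, a ratio of 0.649 (0.485 to 0.862) for virgin males over virgin females. Sri, which encodes sorcin, had 9.66 CPM in mothers, 10.4 in virgin males and 16.6 in virgin females, or 0.584 (0.346 to 0.966) for mothers over virgin females.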

How the data were processed

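Single-nucleus 3′ libraries of mothers, virgin males and virgin females (1 each) were analysed from the authors' deposited table of UMI counts per gene and nucleus and their deposited metadata. The metadata give each nucleus a library, class, cluster and subtype labels, and the percent of mitochondrial UMIs. The submitters' processing notes name Cell Ranger 5.0.1 and GRCm38 (mm10). The sources used here do not give the filters on nuclei, intron counting, strand or doublet removal, and no doublet caller was run.

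Nuclei were matched between tables by total UMIs with genes detected, a combination unique for all 603. The deposited percent matched the counts with a largest difference of 0. No barcode was shared between libraries. Counts were summed per library and cluster and scaled to CPM. Libraries held 2693450 UMIs in mothers, 2126642 in virgin males and 2790062 in virgin females.

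No test was possible between groups, so there are no p-values. Intervals (95%) are exact Poisson for CPM, Clopper-Pearson for shares and conditional binomial for ratios. They cover counting error only, not mice, dissections or differences between nuclei. The interval code was tested on simulated data. Thinning used 5000 UMIs per nucleus, leaving out 14 nuclei of mothers, 30 of virgin males and 15 of virgin females.

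Named genes were all members, the 3 genes with the highest Pearson r to each member with at least 100 neuronal UMIs, and members of 3 calcium lists. From the lists came those past 1.5-fold with an interval excluding 1 and at least 50 UMIs, and the 3 EF-hand genes with the highest cluster ratio. Spp1, Tnnt1, Slc17a6, Pou4f1 and the GABA genes come from the marker lists, chosen for the text after their values were seen. Members and lists were chosen with earlier results of these data known.

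Coding sequence came from GENCODE M21 on GRCm38. Software was Python 3.11.15, numpy 2.4.6, scipy 1.17.1, pandas 2.3.3 and Biopython 1.88. Alternatives covered scaling, nucleus weights, thinning, deep or rich nuclei, cluster mix, low-count filters and leaving out each library.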

Additional observations from a re-analysis of the deposited data

How the results depend on the processing

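Each ratio between libraries and each cluster ratio was recomputed under the alternatives, and 213 values stayed within their counting interval or moved by less than the spread over libraries, 11 moved further and 2 past 1.5-fold reversed. Of the other values, shares of nuclei per library after thinning and counts of genes at other filters, 26 moved and 4 did not. Cluster ratios without each library in turn (log2) ranged from 0.98 to 1.15 for Calb1 in cluster 2, -2.87 to -2.58 for Calb2 in cluster 3, 0.75 to 0.86 for Calb2 in cluster 4 and 3.64 to 4.48 for Pvalb in cluster 1. They ranged from 0.71 to 0.87 for Necab1 in cluster 0, -6.34 to -4.88 for Necab1 in cluster 1, 0.70 to 1.00 for Necab2 in cluster 3 and 0.86 to 1.27 for Necab3 in cluster 3. The -6.34 is without virgin males.

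Both reversals were of Pvalb ratios: mothers over virgin females was 0.14 with the same mix of clusters, against -0.63, and virgin males over virgin females was 0.25 after thinning, against -0.59; the cause was not tested. Thinning gave 0.81 for Calb1 in cluster 2 (against 1.05), -3.28 for Calb2 in cluster 3 (against -2.70) and 0.47 for Necab2 in cluster 3 (against 0.84). The mean over nuclei gave -3.02 for Calb2 in cluster 3 and -4.06 for Necab1 in cluster 1 (against -5.38), and leaving out the 5% deepest nuclei gave -3.02 for Calb2 in cluster 3. For Necab1, the same mix of clusters gave -0.22 for mothers over virgin females (against -0.08) and 0.073 for virgin males over virgin females (against 0.21). A mix of clusters 0, 2 and 3 gave -0.29 and 0.028. The contrasts of the lowest clusters and this last mix were added after seeing the data, as was leaving out the nuclei labelled medial habenula, given with Necab3.

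Genes at least 1.5-fold higher or lower numbered 1408 and 1304 for mothers over virgin females at 10 UMIs, 398 and 380 at 50, and 4333 and 3846 at 1. For virgin males over virgin females they numbered 1271 and 1392, 299 and 459, and 3889 and 4411. For mothers over virgin males they numbered 1387 and 1270, 425 and 301, and 4532 and 3774. No paired analysis was possible because each group had 1 library. Depth limits Pvalb most, at 54 UMIs in all.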
